A study of Mus musculus with 138 samples.

Results

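The genes described here are 10 enzymes and chaperones that finish collagen and elastin fibres: Lox, Loxl1, Loxl2, Loxl3, Loxl4, Plod1, Plod2, Bmp1, Serpinh1 and Crtap. They were chosen by name, as the members of 1 biochemical pathway, out of the 55487 genes in the count tables, and all 10 were among the 19768 genes that passed the filter on low counts. The mice were C57BL/6J embryos at E16.5 and E18.5 with no engineered allele and no treatment. Suture mesenchyme (SM), the cells between skull bones, and osteogenic fronts (OFs), the growing bone edges, were cut by laser from the coronal, frontal, lambdoid and sagittal sutures, and RNA-seq libraries were made from each piece. The OFs were the frontal (FR) and parietal (PA) fronts of the coronal suture, the frontal front of the frontal suture, the parietal and interparietal (IP) fronts of the lambdoid suture and the parietal front of the sagittal suture. This gave 20 groups of 5 libraries. Each suture and stage had its own 5 embryos, and each embryo gave 1 library to every region of its suture. Suture, stage and embryo therefore cannot be told apart in comparisons of levels. Regions were compared within embryos, so those p-values measure how the region difference varied from embryo to embryo. P-values of stage comparisons measure the spread between embryos. By their litter labels, many embryos of a group were littermates, which were counted as separate embryos. No litter was shared between stages, so stage and litter cannot be told apart either. A further 18 coronal libraries, called the second libraries here, came from some of the same embryos and regions, with no description of how their preparation differed. There were also 16 libraries of complete E18.5 sutures without replicates and 4 single-cell libraries of pooled coronal sutures.

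Collagen is modified, folded, trimmed and crosslinked in that order. Inside the endoplasmic reticulum, the lysyl hydroxylases Plod1 and Plod2 hydroxylate lysines of the collagen chains, Plod1 mainly in the helix and Plod2 mainly in the end regions called telopeptides, and Crtap is a partner of the prolyl 3-hydroxylase complex. Serpinh1, also called Hsp47, is the chaperone that binds the folded triple helix on its way to the Golgi. Outside the cell, Bmp1 cuts the C-terminal propeptide from procollagen and also activates pro-Lox. The copper-dependent amine oxidases Lox and Loxl1 to Loxl4 then oxidise lysines and hydroxylysines, whose aldehydes form the crosslinks between molecules, and Loxl1 is best known for elastic fibres. Mutations of Plod2, Bmp1, Serpinh1 or Crtap cause brittle bone disorders in humans.

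First libraries held 7305627 to 34518477 counts each. The coronal E16.5 libraries stood apart: mitochondrial genes took a median of 36.3% of their counts, against 15.1% to 24.2% over the other sutures and stages and 14.5% in the second coronal E16.5 libraries. Of the frontal E18.5 libraries, 3 had 33.5% to 52.3%. The first coronal E16.5 libraries also had fewer genes detected, 17274 to 22824, at 20873549 to 34518477 counts. In the first E16.5 libraries of the other sutures 21967 to 28397 genes were detected, at 8098490 to 18450955 counts. The captures matched their labels by osteoblast markers: the summed level of 9 markers was 370 to 1572 CPM in SM libraries and 2508 to 22080 CPM in OF libraries, with no overlap. CPM is the count of a gene as a share of all counts assigned to genes in its library, times 1e6, with library sizes scaled by the trimmed mean of M-values (TMM). Summed marker levels are the exception, as they were not scaled by TMM.

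By mm10 coordinates, Loxl4 lies at chr19:42593982-42612813, minus strand. Loxl2 (chr14:69609068-69695834, plus strand) and Bmp1 (chr14:70474558-70520234, minus strand) are on the same chromosome. Loxl1 (chr9:58287738-58313186, minus strand), Plod2 (chr9:92542223-92608428, plus strand) and Crtap (chr9:114375134-114390675, minus strand) share another. Loxl3 is at chr6:83034173-83052562, plus strand, Plod1 at chr4:147909753-147936767, minus strand, Serpinh1 at chr7:99345376-99353239, minus strand and Lox at chr18:52516067-52529867, minus strand. Counts came from exons of all transcripts of a gene. Exons of other genes covered 11.6% of the exon bases of Loxl3 (Htra2, antisense), 6.4% of Plod2 (Gm38391, antisense), 5.7% of Loxl2 (mainly Gm27177, antisense) and 0.6% of Lox. The library kit does not keep strand, so reads in those stretches cannot be told apart. The other 6 genes had no shared exon bases.

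Per kilobase of exon and averaged over the 20 groups, the chaperone Serpinh1 was highest, at 358 CPM per kb, followed by Lox at 171, Loxl2 at 88.2, Crtap at 83.5 and Plod2 at 46.3 CPM per kb. Plod1 (13.1), Loxl4 (11.96), Bmp1 (11.0), Loxl1 (8.83) and Loxl3 (3.38 CPM per kb) made up the low end. Over the 14 groups outside the coronal suture, Crtap (81.6) stood above Loxl2 (61.8), and Plod2 was at 27.6 CPM per kb. Neighbours in this order, such as Plod1, Loxl4 and Bmp1, exchanged places between groups, as Loxl4 alone ranged from 2.23 to 122 CPM over the group means.

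RefSeq promoters (250 bases before to 50 after the start site, GRCm38.p6) were given for 4 of the 10 genes. Those of Loxl4 and Serpinh1, the genes with the largest OF excess, and of Plod1, which had none on average, are shown 5′ to 3′ on the minus strand, from chr19:42612757-42613056, chr7:99353190-99353489 and chr4:147936727-147937026. Capitals mark matches on either strand to the GC box core GGGCGG, the TATA box core TATAAA, the Runx core TGTGGT and the heat shock element core GAANNTTC.
Loxl4: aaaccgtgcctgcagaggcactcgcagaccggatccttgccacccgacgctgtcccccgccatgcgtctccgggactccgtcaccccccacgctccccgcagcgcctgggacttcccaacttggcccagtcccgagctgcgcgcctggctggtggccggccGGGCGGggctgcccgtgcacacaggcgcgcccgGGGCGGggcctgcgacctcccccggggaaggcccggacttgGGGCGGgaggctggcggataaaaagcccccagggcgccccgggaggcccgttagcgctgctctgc
Serpinh1: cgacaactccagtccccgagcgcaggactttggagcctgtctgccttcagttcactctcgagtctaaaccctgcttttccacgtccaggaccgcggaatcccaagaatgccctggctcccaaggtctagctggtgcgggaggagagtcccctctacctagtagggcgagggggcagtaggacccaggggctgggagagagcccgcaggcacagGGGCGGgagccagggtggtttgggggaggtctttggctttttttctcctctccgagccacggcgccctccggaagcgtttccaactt
Plod1: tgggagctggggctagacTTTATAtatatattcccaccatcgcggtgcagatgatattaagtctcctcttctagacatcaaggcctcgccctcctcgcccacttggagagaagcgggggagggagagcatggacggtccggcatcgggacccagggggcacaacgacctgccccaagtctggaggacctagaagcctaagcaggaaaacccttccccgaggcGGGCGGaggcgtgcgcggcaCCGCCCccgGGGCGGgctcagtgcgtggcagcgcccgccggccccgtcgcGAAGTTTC
The Loxl4 window held 3 GC box cores, starting at -89, -56 and -15 from the start site, and the Serpinh1 window 1, at -37. The Plod1 window held 3, at -28, -8 and +2, with a TATA box core at -232 and a heat shock element core at +43. The Crtap window held a Runx core at -187, a TATA box core at -136 and a GC box core at +22. Of 32851 promoters of this length, 35.7% held the GC box core, 16.8% the Runx core, 13.6% the TATA box core and 7.86% the heat shock element core. No matches overlapped one another in the windows shown.

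OFs and SM differed in most of these genes. Averaged over the 8 sets of 1 suture and stage, 6 of the 10 genes were higher in OFs and 3 were lower (edgeR quasi-likelihood test with the embryo as a block, Benjamini-Hochberg adjusted p under 0.05). The background was wide: 28.2% of all genes tested were called higher and 28.7% lower in this contrast. The median log2 fold change of the 10 genes was 0.21, against -0.04 over all genes tested. Loxl4 had by far the largest change, with a log2 fold change of 4.19 ± 0.12 (SE), or 18.3-fold. Serpinh1 was higher by 1.04 ± 0.05, Plod2 by 0.61 ± 0.04, Loxl2 by 0.42 ± 0.04, Lox by 0.21 ± 0.05 and Crtap by 0.21 ± 0.04. Loxl3 (-0.86 ± 0.10), Loxl1 (-0.77 ± 0.09) and Bmp1 (-0.45 ± 0.05) were lower in OFs. Plod1 did not pass the test, with a log2 fold change of 0.02 ± 0.05 (adjusted p = 0.780, edgeR). Without the coronal libraries, Lox (log2 fold change 0.001, adjusted p = 0.986 by edgeR) and Crtap (0.03, adjusted p = 0.578) lost their calls, and Crtap also by total counts without TMM (0.10, adjusted p = 0.0604). The same captures differed in cell makeup. All 9 osteoblast markers were higher in OFs, with a median log2 fold change of 3.71, 6 of 8 suture mesenchyme markers and 4 of 6 chondrocyte markers were lower, and all 5 proliferation markers were higher. Also lower were 4 of 5 pericyte markers (median -0.86), 4 of 5 ectocranial mesenchyme markers (-0.67) and 6 of 7 macrophage markers (-0.34). The part of these cell types in the results was not tested. In such bulk samples, fewer cells of a type and less RNA per cell cannot be told apart.

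**Figure D1:**
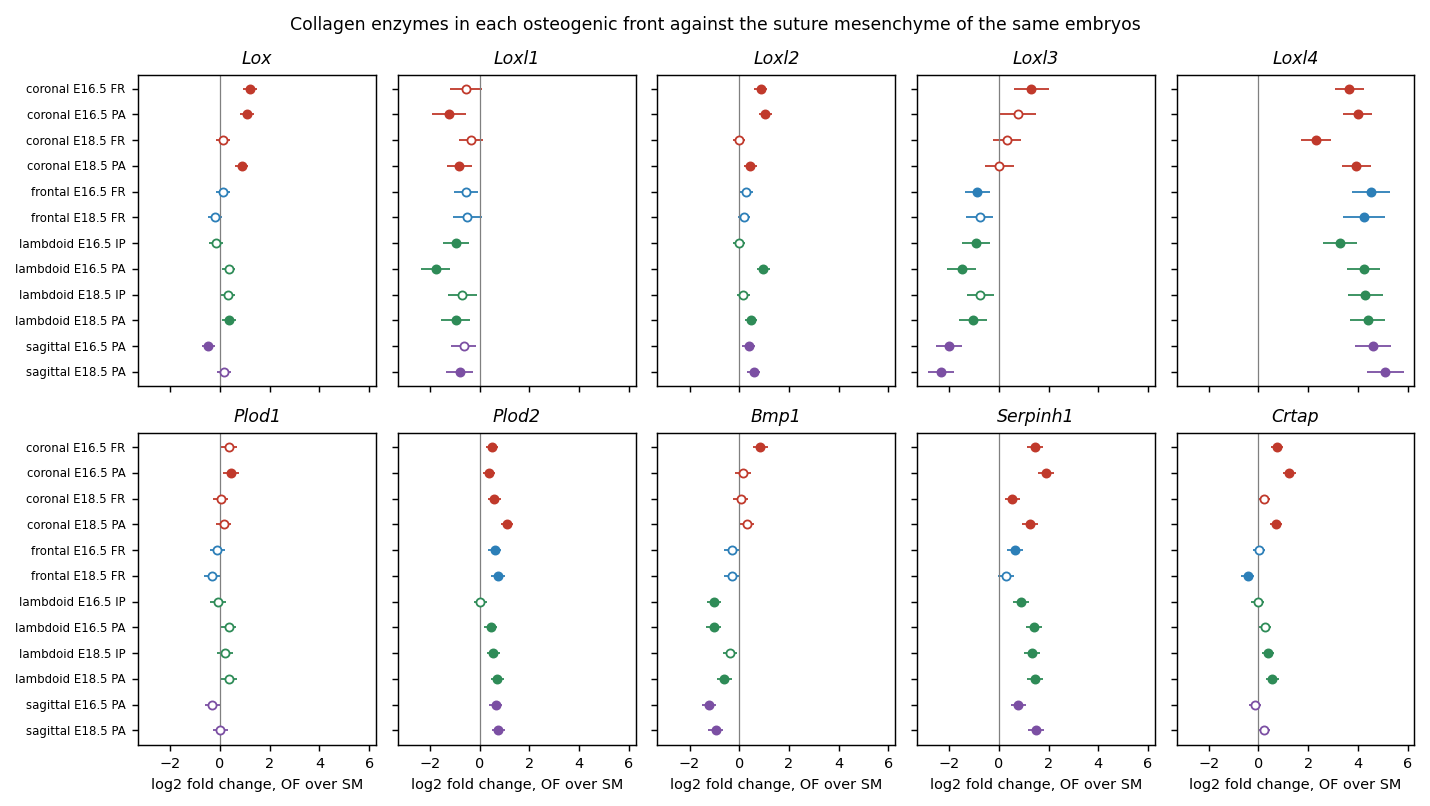
Log2 fold change of each gene, OF over SM, in the 12 comparisons (horizontal axis, bars approximate 95% intervals from the SE), coloured by suture, with filled points for an adjusted p under 0.05. Loxl4 is to the right of 0 and filled in all 12 rows, Loxl1 is to the left in all 12, and Loxl3 and Bmp1 change side between the coronal suture and the others.

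In the 12 comparisons of 1 OF with the SM of the same suture and stage, the 10 genes gave 53 calls higher in OFs and 19 lower. Over all genes tested, 12% of the tests were called higher and 10.9% lower. Of the 40 coronal tests, 24 were called higher and 2 lower, against 16 and 1 with the second coronal libraries alone and 15 and 0 with the first libraries of the same regions, at 3 libraries per group. At E18.5, only replicates 1 and 3 of these smaller sets held both the frontal front and SM. Of 9 calls lost with the second libraries alone, 8 were also lost with the first libraries of the same regions, the exception being Bmp1 in the frontal front at E16.5. All genes were called in 0.478% to 8.48% of tests with those second libraries and in 0.102% to 6.82% with those first libraries. The share of all genes called higher and lower was 17.1% and 19.7% in the coronal frontal front at E16.5 and 19.7% and 23.2% in the parietal front. At E18.5 these shares were 4.15% and 3.71% in the coronal frontal and 13.6% and 13.2% in the coronal parietal front. The frontal suture had 6.68% and 5.81% at E16.5 and, at the later stage, 6.05% and 5.44%. The lambdoid interparietal front had 7.77% and 5.81% at E16.5 and, later, 11.3% and 8.65%, and the lambdoid parietal front 14% and 10.8% at E16.5 and, later, 13.8% and 10.6%. For the sagittal suture the shares were 13.4% with 9.98% at E16.5 and 16.8% with 14.2% later. Of the 72 calls, 55 were made whichever replicate was left out and 17 were lost in at least 1 such fit, and 12 further tests were called in at least 1. The 2 OFs of a coronal or lambdoid suture at 1 stage were compared with the same SM libraries and are not independent.

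Loxl4, a lysyl oxidase of the same subfamily as Loxl2 and Loxl3, was higher in the OF in all 12 comparisons. OF and SM libraries did not overlap in any of them, and the OF was higher in 60 of 60 pairs from the same embryo. In the sagittal suture at E18.5, the parietal front held 67.8, 87.9, 82.8, 80.4 and 76.8 CPM and the SM 2.92, 2.54, 2.79, 1.89 and 1.40 CPM in the 5 embryos. This was the widest gap, at 5.10 ± 0.38 on the log2 scale (adjusted p = 1.16e-17, edgeR). The narrowest was in the coronal frontal front at E18.5, with 21.7, 61.9, 24.7, 26.8 and 22.4 CPM against 4.97, 12.4, 6.38, 6.34 and 1.51 CPM in SM, a difference of 2.32 ± 0.31 (adjusted p = 9.82e-08). Even there the lowest OF library was above the highest SM library. With the second coronal libraries alone that difference was 1.63 ± 0.47 and not called (adjusted p = 0.176, edgeR), nor was it with the first libraries of the same regions (1.91 ± 0.61, adjusted p = 0.824). Both fits paired this front with SM in replicates 1 and 3 only. Non-overlapping groups with the OF higher were seen for 2.32% of all genes in that comparison and for 16.6% in the sagittal E18.5 one.

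Serpinh1, the collagen chaperone, was higher in 11 of 12 comparisons and in 58 of 60 embryo pairs, and its groups were separate in 9. The coronal parietal front at E16.5 held 678, 1186, 959, 1088 and 1185 CPM against 272, 338, 333, 178 and 283 CPM in SM, 3.71-fold more (log2 1.89 ± 0.17, adjusted p = 2.07e-14, edgeR). All 5 front libraries were above all 5 SM libraries, as for 4.32% of all genes in this comparison. Over the 9 comparisons with separate groups, such a gap was seen for 2.48% to 18.6% of all genes. The second libraries alone gave 1.47 ± 0.16 (adjusted p = 1.07e-05). They did not call Serpinh1 in the frontal front at E18.5 (0.47 ± 0.18, adjusted p = 0.375, against 0.54 ± 0.16 in all first libraries), and neither did the first libraries of the same regions (0.40 ± 0.22, adjusted p = 1.00). With all first libraries, that coronal call was lost without replicate 2 (0.40 ± 0.16, adjusted p = 0.197, edgeR). It was also lost without replicate 3 (0.53 ± 0.18, adjusted p = 0.0654). In the frontal suture at E18.5 the difference was not called with all libraries. The front held 547, 229, 495, 744 and 305 CPM and the SM 370, 360, 248, 380 and 414 CPM, a difference of 0.30 ± 0.17 (adjusted p = 0.308). Here the front libraries spread to both sides of the SM libraries, the embryo being lower in the front in 2 of 5 pairs. These were replicates 2 and 5, whose front libraries had 35.6% and 52.3% mitochondrial counts, against 22.6% to 26.4% in the other 3, and replicate 5 had 20627 genes detected. In SM, replicate 3 had 33.5%. Without replicate 2 the difference was 0.53 ± 0.17 and was called (adjusted p = 0.0348, edgeR), and without replicate 5 it was 0.48 ± 0.19 (adjusted p = 0.130). It was smaller without replicate 1 (0.24 ± 0.18), replicate 3 (0.13 ± 0.19, adjusted p = 0.770) or replicate 4 (0.15 ± 0.19, adjusted p = 0.792). The part of library quality in the result was not tested.

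**Figure D2:**
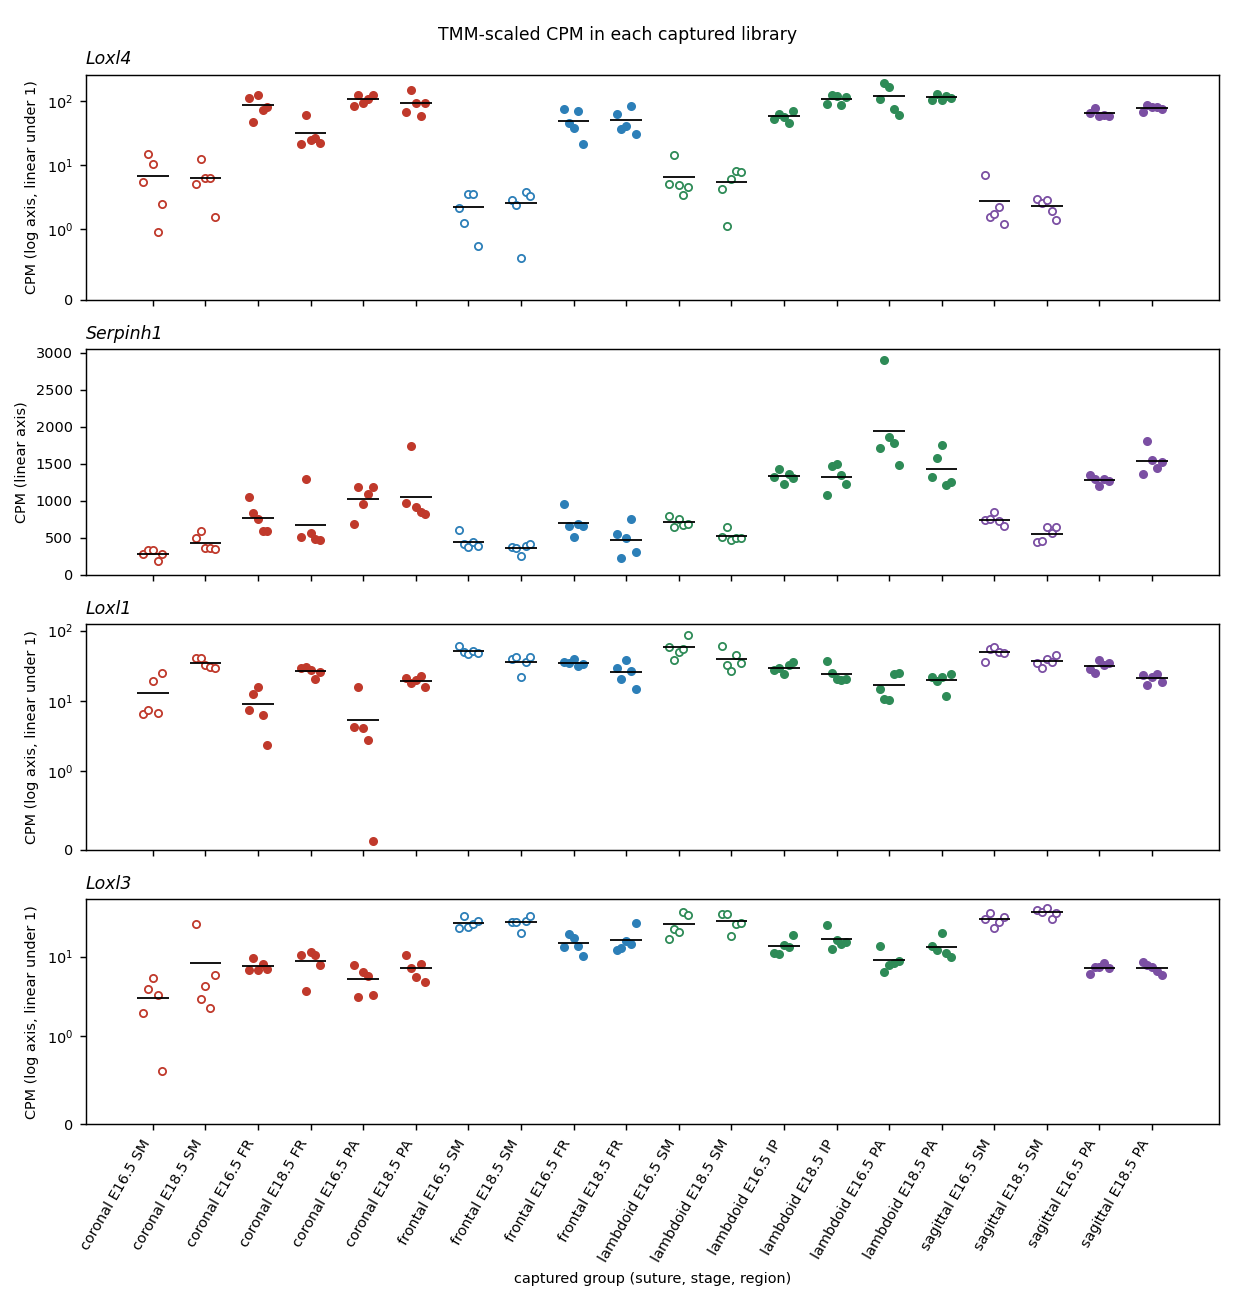
CPM of Loxl4, Serpinh1, Loxl1 and Loxl3 in every first library (open points SM, filled points OF, short lines group means), by suture, stage and region. The Serpinh1 axis is linear and the others are logarithmic above 1 CPM. All SM libraries of Loxl4 lie below the OF libraries of their own set, and the Loxl3 libraries of sagittal E18.5 SM, from 29.5 to 41.5 CPM, lie above those of its front, from 5.90 to 8.63 CPM.

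Plod2, the telopeptide lysyl hydroxylase, was also higher in 11 of 12 comparisons and in 58 of 60 pairs. At E16.5, Plod2 lost the lambdoid parietal call without replicate 1, 3 or 4 (adjusted p = 0.0502 to 0.1305, edgeR). It also lost the coronal parietal call at that stage without replicate 2, 3 or 4 (0.0718 to 0.121). Its largest gap was in the coronal parietal front at E18.5, where the front held 628, 860, 868, 750 and 812 CPM and SM 330, 384, 296, 418 and 378 CPM, without overlap, as for 6.47% of all genes (log2 1.11 ± 0.13, adjusted p = 2.47e-10, edgeR). The second libraries alone gave 0.86 ± 0.18 there (adjusted p = 0.00591). In the other coronal comparisons all first libraries gave 0.39 ± 0.13 in the parietal front at E16.5 and 0.49 ± 0.13 and 0.59 ± 0.13 in the frontal front at E16.5 and E18.5, all called. At 3 libraries per group none of these was called. The second libraries alone gave 0.55 ± 0.18, 0.53 ± 0.19 and 0.46 ± 0.21 (adjusted p = 0.0805, 0.130 and 0.477, edgeR). The first libraries of the same regions gave 0.39 ± 0.21, 0.47 ± 0.21 and 0.63 ± 0.24 (adjusted p = 0.288, 0.196 and 1.00). In the lambdoid interparietal front at E16.5 its difference was 0.03 ± 0.13 and was not called (adjusted p = 0.952). Plod1, the helical lysyl hydroxylase, passed in 1 comparison, the coronal parietal front at E16.5 (0.43 ± 0.16, adjusted p = 0.0251), and its 12 differences ran from -0.34 to 0.43. That call was lost with the second coronal libraries alone (0.05 ± 0.18, adjusted p = 0.908, edgeR) and with the first libraries of the same regions (0.45 ± 0.33, adjusted p = 0.462). It was also lost without replicate 1, 3 or 4 (adjusted p = 0.184 to 0.300), and the coronal frontal front at E16.5 gained a call without replicate 2 or 5 (adjusted p = 0.00578 to 0.0474). The lowest difference was in the frontal suture at E18.5 (-0.34 ± 0.16), which without replicate 3, whose SM library had 33.5% mitochondrial counts, was -0.52 ± 0.17 and called (adjusted p = 0.0351), and without replicate 2 was -0.17 ± 0.17. Its groups overlapped in all 12 comparisons. Whether the OF to SM difference of Plod2 differs from that of Plod1 was not tested.

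Crtap was called higher in 5 comparisons and lower in 1. Crtap lost the higher call in the lambdoid interparietal front at E18.5 (0.38, adjusted p = 0.0313, edgeR) without replicate 1, 3, 4 or 5 (adjusted p = 0.0613 to 0.269). In the coronal parietal front at E16.5 it was at 197.8, 266, 213, 222 and 216 CPM against 75.4, 116, 117, 90.5 and 76.6 CPM in SM, with no overlap (log2 1.24 ± 0.13, adjusted p = 4.02e-12, edgeR). In the second libraries alone the difference was smaller, at 0.74 ± 0.15, and called (adjusted p = 0.00431). In the frontal suture at E18.5 it was lower in the front, with 127, 78.1, 120, 138 and 107 CPM in the front and 150, 186, 141, 141 and 144 CPM in SM (-0.43 ± 0.13, adjusted p = 0.0216). Every front library there was below every SM library, as for 5.76% of all genes. The front libraries of replicates 2 and 5, with 35.6% and 52.3% mitochondrial counts, are among these. Without replicate 2 the difference was -0.23 ± 0.13 (adjusted p = 0.334, edgeR) and without replicate 5 -0.43 ± 0.15 (adjusted p = 0.0880), and neither was called. The part of library quality was not tested.

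Loxl2 was higher in 7 of 12 comparisons and in 53 of 60 pairs, and was called lower in none. Loxl2 lost the sagittal call at E16.5 without replicate 1, 2, 4 or 5 (adjusted p = 0.0520 to 0.136, edgeR). At E18.5 it lost the coronal parietal call without replicate 3 (0.0688) and the lambdoid parietal call without replicate 4 (0.101). It gained a frontal suture call at E16.5 without replicate 5 (0.0403). The lambdoid parietal front at E16.5 held 481, 823, 574, 458 and 348 CPM and its SM 239, 316, 256, 280 and 238 CPM, which did not overlap, as for 15.8% of all genes (log2 0.98 ± 0.13, adjusted p = 1.01e-08, edgeR). The interparietal front of the same embryos held 248.9, 287, 275, 263 and 240 CPM, all within the range of SM, and was not called (-0.01 ± 0.13, adjusted p = 0.986). Lox, the founding lysyl oxidase, was higher in 4 comparisons, 3 of them coronal, and lower in 1. Lox lost the lambdoid parietal call at E18.5 (0.37, adjusted p = 0.0451, edgeR) without replicate 1, 3, 4 or 5 (adjusted p = 0.141 to 0.357). It gained calls in the lambdoid parietal front at E16.5 without replicate 5 (0.0442) and in the interparietal front at E18.5 without replicate 2 (0.00666). The coronal frontal front at E16.5 held 1183, 1003, 1196, 861 and 2120 CPM against 638, 440, 374, 557 and 619 CPM in SM (1.22 ± 0.14, adjusted p = 3.90e-10), with all front libraries above all SM libraries, as for 2.48% of all genes, and the second libraries alone gave 1.18 ± 0.13. In the sagittal suture at E16.5 the front held 485, 482, 546, 468 and 458 CPM and SM 612, 669, 737, 738 and 624 CPM, and the fall in the front (-0.47 ± 0.14, adjusted p = 0.00930) was again without overlap, as for 14.6% of all genes.

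Loxl1, the elastic-fibre lysyl oxidase, had negative differences in all 12 comparisons, 6 of them called, and was higher in the front in 4 of 60 pairs. The lambdoid parietal front at E16.5 held 15, 10.5, 10.4, 24.1 and 25.3 CPM and its SM 58.9, 38.6, 50.1, 55.0 and 87.2 CPM (-1.76 ± 0.29, adjusted p = 2.32e-06, edgeR). No front library reached the lowest SM library. Groups separate in this direction were seen for 13% of all genes in this comparison. Of the 6 calls, the coronal parietal front at E18.5 (-0.81 ± 0.26) was not called with the second libraries alone (-0.65 ± 0.33, adjusted p = 0.257, edgeR) or with the first libraries of the same regions (-0.72 ± 0.37, adjusted p = 0.522). In the coronal parietal front at E16.5 (-1.23 ± 0.35), the front library of replicate 5 held 2 counts, and without that replicate the difference was -0.55 ± 0.31 and not called (adjusted p = 0.152). Loxl1 also lost calls at E18.5, in the coronal parietal front without replicate 1 (adjusted p = 0.0517, edgeR) and the sagittal front without replicate 3 (0.0609). The lambdoid interparietal call at E16.5 was lost without replicate 1 (0.0549) and the lambdoid parietal call at E18.5 without replicate 1 or 4 (0.101 and 0.123). Without replicate 5, the lambdoid interparietal front at E18.5 (0.0487) and the sagittal front at E16.5 (0.0159) gained a call.

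Loxl3 and Bmp1 had positive differences in all 4 coronal comparisons and negative ones in the other 8. Loxl3 was called lower in 6 comparisons of the frontal, lambdoid and sagittal sutures and higher in 1, the coronal frontal front at E16.5. Loxl3 lost the lambdoid interparietal call at E16.5 without replicate 2, 4 or 5 (adjusted p = 0.0537 to 0.107, edgeR). It lost the frontal suture call at E16.5 without replicate 5 (0.104), and gained a lambdoid interparietal call at E18.5 without replicate 1 or 3 (0.0196 and 0.0353). In the sagittal suture at E18.5 it was at 8.63, 7.82, 7.46, 6.497 and 5.90 CPM in the front and 38.4, 36.7, 41.5, 29.5 and 35.6 CPM in SM, 4.99-fold higher in SM (log2 -2.32 ± 0.27, adjusted p = 2.54e-10, edgeR). In the coronal suture at E16.5 it was at 6.74, 9.62, 6.70, 8.08 and 6.91 CPM in the frontal front and 1.97, 3.94, 5.401, 3.25 and 0.605 CPM in SM (1.31 ± 0.35, adjusted p = 0.00265). Neither pair of groups overlapped, a pattern that 14.7% of all genes had in the sagittal and 2.48% in the coronal comparison. Bmp1, the procollagen C-proteinase, was lower in 5 lambdoid and sagittal comparisons and higher in the coronal frontal front at E16.5. The sagittal suture at E16.5 held 75.5, 64.2, 76.7, 66.7 and 61.0 CPM in the front and 164, 159, 155, 154 and 165 CPM in SM (-1.22 ± 0.15, adjusted p = 1.32e-09). The coronal frontal front at E16.5 held 81.8, 63.1, 85.5, 69.8 and 36.5 CPM against 47.2, 39.4, 27.6, 42.5 and 29.6 CPM (0.85 ± 0.16, adjusted p = 1.52e-05), where the groups overlapped. With the second coronal libraries alone, 3 per group, these coronal calls became 0.96 ± 0.31 for Loxl3 (adjusted p = 0.0935, edgeR) and 0.49 ± 0.18 for Bmp1 (0.143). The first libraries of the same regions gave 1.05 ± 0.73 for Loxl3 (adjusted p = 0.425) and 1.07 ± 0.30 for Bmp1 (0.0444). In the coronal frontal front at E18.5, Loxl3 was at 0.32 ± 0.29 with all replicates and called higher without replicate 1 (1.07 ± 0.31, adjusted p = 0.0216).

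Whether the OF to SM difference varied between sutures was tested directly. It differed among the 4 sutures for 7 of the 10 genes (edgeR F test), where 24.9% of all genes were called. F was 39.0 for Bmp1, 32.5 for Loxl3, 22.4 for Crtap, 22.3 for Lox, 12.1 for Serpinh1, 5.15 for Plod1 and 5.08 for Loxl4. The coronal difference was then set against the mean of the other sutures, with its sign kept as OF minus SM. It was higher for 5 genes and lower for 1, with a background of 9.89% and 15.6%. Higher differences were those of Loxl3 (by 1.94 ± 0.23), Bmp1 (1.06 ± 0.11), Lox (0.81 ± 0.10), Crtap (0.68 ± 0.09) and Serpinh1 (0.32 ± 0.12). That of Loxl4 was lower, by 0.95 ± 0.27. The fit with second coronal libraries in place of the first swapped only the 18 with a counterpart and kept first libraries elsewhere. At E18.5, replicates 4 and 5 then held both kinds within an embryo. In this fit, Loxl3 (2.20), Bmp1 (1.06), Lox (0.78) and Crtap (0.64) kept the call. Loxl4 (-0.53, adjusted p = 0.169, edgeR) and Serpinh1 (0.29, adjusted p = 0.0936) did not. Loxl4 also lost it without replicate 2 (-0.61, adjusted p = 0.120), and Serpinh1 without replicate 2, 4 or 5 (adjusted p = 0.0851, 0.0777 and 0.0976), without the embryo block (adjusted p = 0.0959) and by total counts without TMM (0.24, adjusted p = 0.183). The coronal difference of Loxl2 was called higher with the second libraries (0.34, adjusted p = 0.00632, edgeR), without replicate 1, by DESeq2 and with median-ratio size factors. That of Plod1 was called higher without replicate 2, by DESeq2, by voom and with median-ratio size factors, with adjusted p from 0.0198 to 0.0323. Summed chondrocyte markers were at 34.9 ± 17.3 CPM in the coronal frontal front and 56.2 ± 33.7 CPM in SM at E16.5, and at 68.7 ± 9.57 CPM in the sagittal front and 347 ± 23.3 CPM in SM at E18.5. Their part in the result for Loxl3 was not tested.

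Fronts on the opposite sides of 1 suture also differed. The 4 such comparisons gave 1 call higher and 10 lower among the 10 genes, where 4.22% and 3.78% of all tests were called. By total counts without TMM, 4 calls were lower in place of 10. At E18.5 the coronal frontal front was below the parietal front for 6 genes, with 5.37% of all genes called lower. Loxl4 held 21.7, 61.9, 24.7, 26.8 and 22.4 CPM in the frontal and 68.5, 152, 94.5, 58.0 and 94.1 CPM in the parietal front, and was lower in the frontal front of all 5 embryos (-1.62 ± 0.25, adjusted p = 2.43e-06, edgeR). Lox (-0.76 ± 0.14), Serpinh1 (-0.72 ± 0.16), Plod2 (-0.52 ± 0.13), Loxl2 (-0.48 ± 0.12) and Crtap (-0.46 ± 0.12) were lower there as well, each in 5 of 5 embryos. The groups overlapped for all 6 genes, and replicate 2 was the highest frontal library of Loxl4 and of Serpinh1. With the second libraries in place of the first, replicates 4 and 5 set libraries of different kinds against each other. In that fit, Loxl4 (-1.75 ± 0.26), Lox (-0.70 ± 0.13), Serpinh1 (-0.62 ± 0.17), Loxl2 (-0.50 ± 0.13) and Plod2 (-0.42 ± 0.14) kept the call and Crtap lost it (-0.36 ± 0.13, adjusted p = 0.0635, edgeR). Crtap also lost it without replicate 1 or 3 (adjusted p = 0.0653 to 0.126) and Loxl2 without replicate 1, 3 or 4 (adjusted p = 0.0507 to 0.114). Summed osteoblast markers moved with them, at 3918 ± 886 CPM in the frontal and 8374 ± 2277 CPM in the parietal front. Other markers moved the opposite way, with endothelial markers at 318 ± 122 and 66.9 ± 14.8 CPM, pericyte markers at 854 ± 278 and 424 ± 69.6 CPM and dura mater markers at 103 ± 43.2 and 36.5 ± 11.2 CPM. The part of these cell types in the result was not tested.

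**Figure D3:**
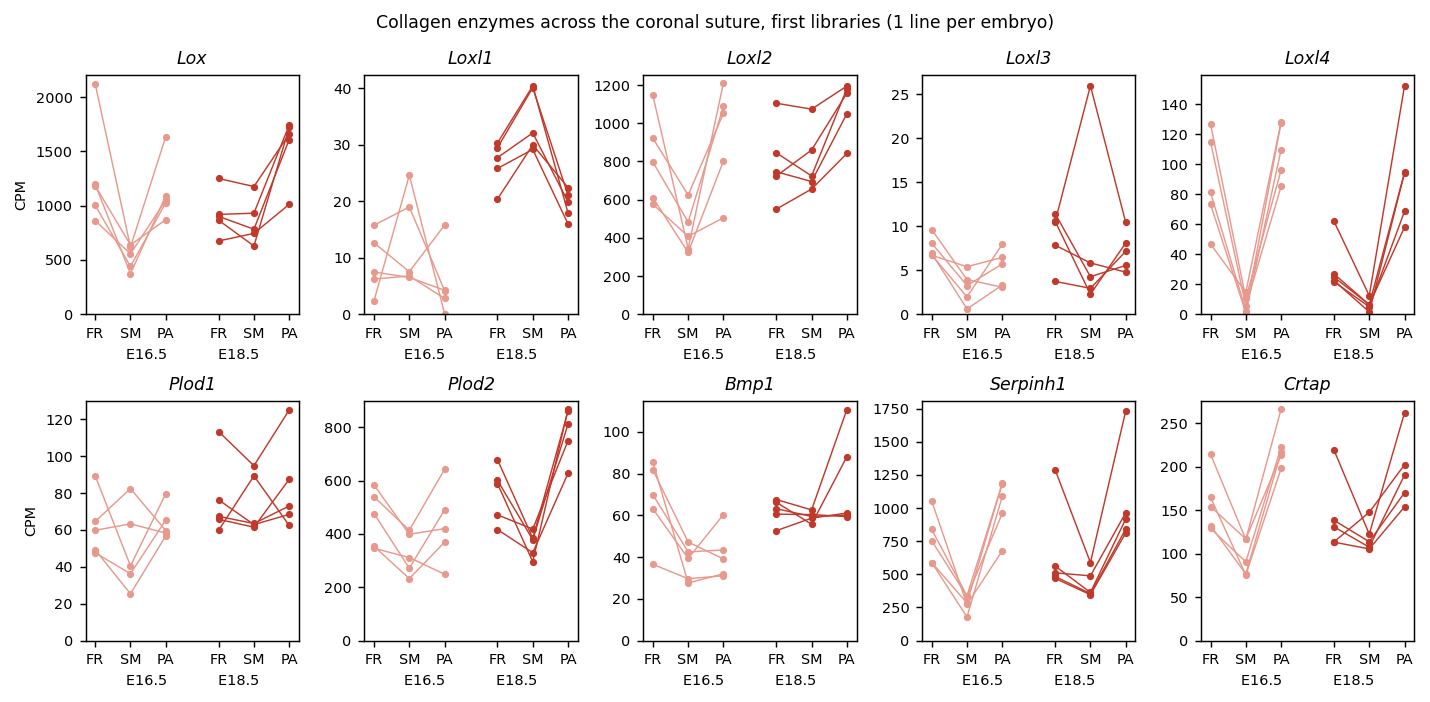
CPM in the frontal front, SM and parietal front of the coronal suture, with 1 line per embryo, at E16.5 and E18.5. At E18.5 the Loxl4 lines reach 21.7 to 61.9 CPM in the frontal front and 58.0 to 152 CPM in the parietal front.

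At E16.5 the coronal fronts differed for 3 genes, against 9.89% of genes called higher and 9.09% lower. Bmp1 was higher in the frontal front (0.70 ± 0.16, adjusted p = 8.84e-04, edgeR), and Crtap (-0.51 ± 0.12) and Serpinh1 (-0.43 ± 0.16, adjusted p = 0.0492) were lower. With the second libraries in place of the first, Serpinh1 kept the call (-0.54 ± 0.17), Bmp1 (0.40 ± 0.17, adjusted p = 0.124) and Crtap (-0.28 ± 0.13, adjusted p = 0.173) lost it, and Loxl1 (1.43 ± 0.35, adjusted p = 0.00662) and Loxl3 (0.82 ± 0.25, adjusted p = 0.0316) were called higher in the frontal front. Serpinh1 lost it without replicate 2, 3, 4 or 5 (adjusted p = 0.0747 to 0.327), while without replicate 1 Loxl3 (0.84 ± 0.32) and without replicate 2 Loxl1 (1.40 ± 0.42) gained one. Loxl4 did not pass at this stage (-0.34 ± 0.24), and the change of its front difference between stages was not tested. In the lambdoid suture at E16.5 the interparietal front was lower than the parietal front for Loxl2 (-0.98 ± 0.13, adjusted p = 1.40e-06, edgeR), without overlap as for 2.02% of all genes, and for Loxl4 (-0.96 ± 0.26, adjusted p = 0.0406), against 0.541% of all genes called higher and 0.637% lower. Loxl4 lost this call without replicate 1, 2, 3 or 4 (adjusted p = 0.132 to 0.465). Osteoblast markers summed to 7137 ± 600 CPM and 10800 ± 3492 CPM in these fronts, and their part in the result was not tested. At E18.5 none of the 10 genes was called between the lambdoid fronts by edgeR, where 8 of 19768 genes were called (0.0405%, or 0.0202% in each direction), and 1 had an unadjusted p under 0.05, Loxl2 at -0.30 ± 0.13.

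Other genes of collagen processing were read from a list of 25, of which 24 passed the filter. In the mean OF to SM contrast 16 were higher and 6 lower, with a median log2 fold change of 0.56, against -0.04 over all genes, of which 28.2% were called higher and 28.7% lower. The largest changes were in Pcolce2, an enhancer of Bmp1 cleavage (3.58 ± 0.17), the prolyl 3-hydroxylase P3h2 (2.56 ± 0.08), the prolyl 4-hydroxylase subunits P4ha2 (1.81 ± 0.06), P4ha1 (1.75 ± 0.05) and P4hb (1.19 ± 0.05), and Creb3l1, a transcription factor of collagen secretion (1.19 ± 0.05), all higher in OFs. P4hb is a general disulfide isomerase as well. Outside the 6 largest, and named after its values were seen, the prolyl 4-hydroxylase subunit P4ha3 was lower in OFs (-1.16 ± 0.07). The 10 substrate genes were split, with 6 higher and 4 lower and a median of 0.13. Col1a1 (0.51 ± 0.05) and Col1a2 (0.51 ± 0.04), the chains of type I collagen, were higher in OFs. Elastin, Eln (-1.12 ± 0.06), the type III collagen Col3a1 (-0.83 ± 0.04) and the type VI chains Col6a1 (-0.66 ± 0.04) and Col6a2 (-0.56 ± 0.03) were lower. Without the coronal libraries, 2 substrate genes were called higher in place of 6, Col1a2 (0.23 ± 0.05, adjusted p = 1.92e-04, edgeR) and Col6a3 (0.25 ± 0.04). Col1a1 (0.13 ± 0.06, adjusted p = 0.0501) and Col5a2 (-0.07 ± 0.04, adjusted p = 0.108) then lost the call, and Col5a1 (-0.15 ± 0.05) and Col11a1 (-0.15 ± 0.06) were called lower. With its sign kept, the coronal OF to SM difference was higher than in the others for 9 of 10 substrate genes and lower for 0. This stood against 9.89% and 15.6% of all genes. It was higher by 1.49 ± 0.11 for Col1a1 and 1.08 ± 0.09 for Col1a2. Among the 9 were also Col6a1 (0.65), Col6a2 (0.53) and Col3a1 (0.34), which were lower in OFs on average. Between the coronal fronts at E18.5, 13 of the 24 genes of the wider list and 5 of the 10 substrate genes were lower in the frontal front, and 0 and 2 were higher, against 5.37% and 6.42% of all genes.

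Patterns over the 20 groups were compared by Pearson's r between group means of log2 CPM, centred on each suture and stage so that level differences between sutures did not enter. Because points share embryos and libraries, these values are descriptions. Lox was most like Col1a2 (r = 0.948) and Col1a1 (0.947), its substrates. Loxl3 was most like the cartilage collagen gene Col2a1 (0.976), Loxl4 like the netrin receptor gene Unc5b (0.997) and Epb41l2 (0.996), and Serpinh1 like Kcnk6 (0.996), Kdelr2, a receptor that returns proteins to the endoplasmic reticulum (0.995), and Fkbp10, a further collagen chaperone (0.995). Plod1 was most like Osbpl2 (0.922), followed by the type V collagen gene Col5a2 (0.913), Plod2 like Fam81a (0.958), Loxl2 like Ccng1 (0.956), Bmp1 like Grin2d (0.967), Crtap like Atp6v0d1 (0.971) and Loxl1 like 4833404L02Rik (0.981).

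Fewer genes changed between stages. In the mean of the 4 SM regions, 4 of the 10 genes were higher at E18.5 and 0 lower by edgeR (4 and 0 by DESeq2, 3 and 0 by voom, with 0 lower at an unadjusted p under 0.05), where 5.85% and 5.89% of all genes were called. Loxl2 rose by 0.78 ± 0.09, Loxl3 by 0.45 ± 0.15, Plod2 by 0.33 ± 0.08 and Lox by 0.30 ± 0.08. In the mean of the OFs, Plod2 rose by 0.60 ± 0.07, Loxl2 by 0.56 ± 0.07, Lox by 0.26 ± 0.07 and Bmp1 by 0.20 ± 0.07, and 0 were lower by edgeR, DESeq2 or voom (0 at an unadjusted p under 0.05), against 6.53% and 6.27% of all genes. For Loxl3, coronal SM at E18.5 held 25.96, 2.94, 4.27, 2.27 and 5.83 CPM, with 1 library far above the others, and without replicate 1 of every group the mean SM difference was 0.07 (adjusted p = 0.848, edgeR). Loxl3 also lost its call with the second coronal libraries (0.01), without replicate 5, by voom, by total counts, with no low-count filter and with a random embryo block, with adjusted p from 0.0525 to 0.994. Lox in SM lost its call without replicate 2 (0.19, adjusted p = 0.153), and Bmp1 in OFs without replicate 1, 2 or 4 (adjusted p = 0.122, 0.0825 and 0.162). Bmp1 lost it as well with the second coronal libraries, by voom, by total counts, with either other low-count filter and with a random embryo block, with adjusted p from 0.0509 to 0.162. The rises of Loxl2 and Plod2 held without the coronal libraries, at 0.74 and 0.39 in SM and 0.73 and 0.63 in OFs, all past the threshold. Without the coronal libraries Loxl3 in SM (0.15, adjusted p = 0.369, edgeR), Lox in SM (0.17, adjusted p = 0.109) and Bmp1 in OFs (0.15, adjusted p = 0.103) lost the call. Loxl1 (-0.49, adjusted p = 9.12e-04) and Serpinh1 (-0.40, adjusted p = 0.00121) then fell in SM, and Loxl1 in OFs as well (-0.33, adjusted p = 0.0187), where it had been 0.16 ± 0.13 with all sutures. Other markers moved with stage in SM: all 5 proliferation markers fell, with a median of -0.82, and all 7 macrophage markers rose, with a median of 0.74. Of 6 chondrocyte markers 3 fell and 1 rose, with a median of -1.24. Of 8 suture mesenchyme markers 4 rose and 0 fell (median 0.28), and of 5 pericyte markers 3 rose and 1 fell (0.44). In OFs, 4 of 5 pericyte markers (median 0.65) and 4 of 7 macrophage markers (0.40) rose, and 3 of 5 proliferation markers (-0.26) and 3 of 6 dura mater markers (-0.71) fell. Their part in these results was not tested.

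Region by region, Loxl2 rose in SM of the coronal, lambdoid and sagittal sutures and in the lambdoid interparietal and sagittal parietal fronts. In the sagittal SM it was at 142, 142, 152, 139 and 140 CPM at E16.5 and 224, 229, 218, 245 and 280 CPM at E18.5 (0.74 ± 0.17, adjusted p = 0.00521, edgeR). All E18.5 libraries were above all E16.5 libraries, as happened for 3.28% of all genes there. In the lambdoid interparietal front it rose from 248.9, 287, 275, 263 and 240 CPM to 605, 441, 610, 582 and 640 CPM (1.13 ± 0.17, adjusted p = 1.93e-05), again without overlap, as for 2.19% of all genes. This stands beside the lower level of Loxl2 in that front than in the parietal front at E16.5. Plod2 rose in the frontal SM and in the coronal parietal, frontal, lambdoid interparietal and sagittal parietal fronts, but was not called in the coronal parietal front of the second libraries alone (0.88 ± 0.27, adjusted p = 0.129). In the sagittal parietal front it was at 101.1, 137, 107, 120 and 122 CPM at E16.5 and 163, 190, 170, 195 and 168 CPM at E18.5 (0.60 ± 0.15, adjusted p = 0.0136). Plod2 lost its call without replicate 4 there (adjusted p = 0.0614), without any 1 replicate in the frontal SM (adjusted p = 0.0586 to 0.311) and without replicate 1, 3, 4 or 5 in the lambdoid interparietal front (adjusted p = 0.107 to 0.185).

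**Figure D4:**
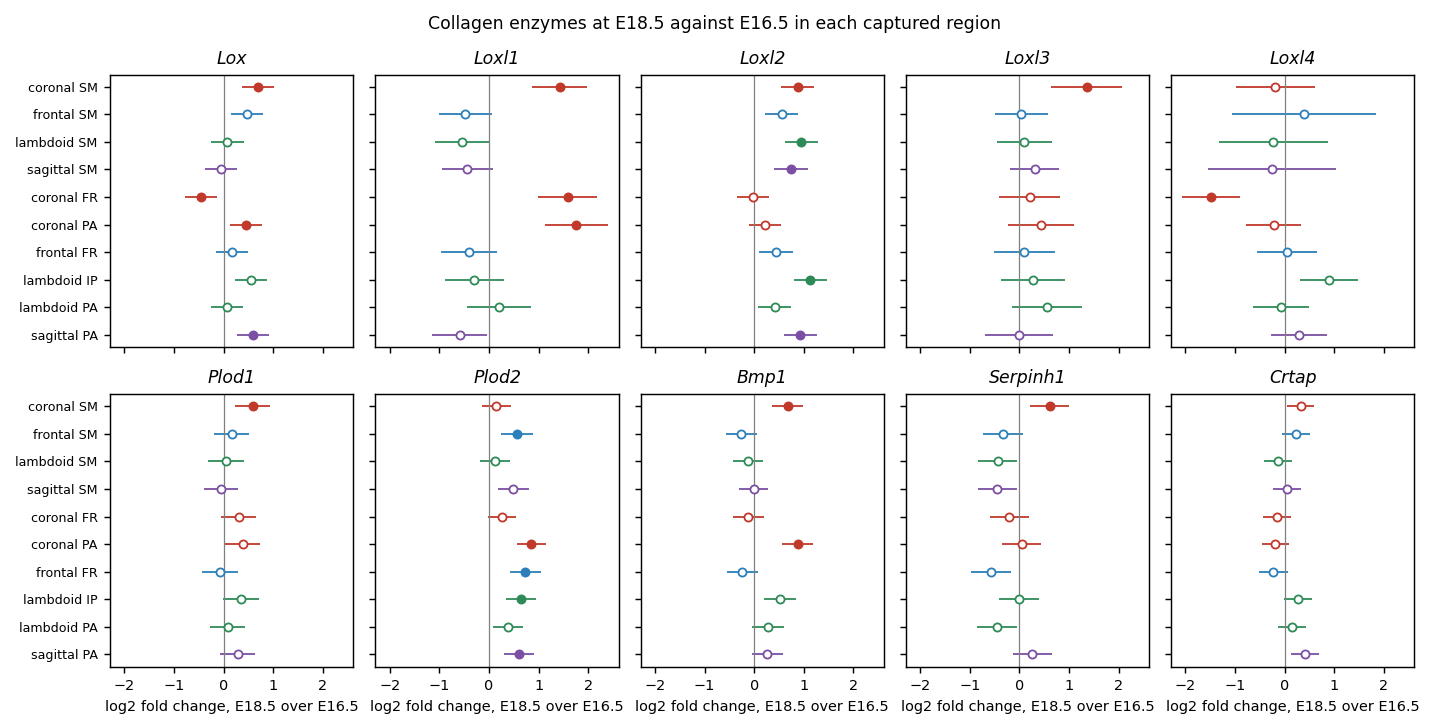
Log2 fold change of each gene, E18.5 over E16.5, in the 10 regions (horizontal axis, bars approximate 95% intervals from the SE), coloured by suture, with filled points for an adjusted p under 0.05. Loxl2 and Plod2 are filled in 5 rows each, and Loxl1 is filled in the 3 coronal rows only.

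Over the 10 regions the 10 genes gave 21 calls higher and 2 lower at E18.5, where 5.58% and 5.61% of all tests were called. Of these, 12 higher and both lower calls were coronal, out of 30 coronal tests. Mitochondrial genes took a median of 36.3% of counts in the first coronal libraries at E16.5 and 23.0% at E18.5. The part of library quality in the coronal stage calls was not tested. All genes were called higher and lower in 15.4% and 16.3% of tests in the coronal frontal front, 14.6% and 13.2% in the parietal front and 17.1% and 19.4% in SM. With the second coronal libraries alone the coronal comparisons gave 4 higher and 2 lower calls at 3 libraries per group, and the first libraries of the same regions gave 1 higher and 2 lower. Of 9 calls lost with the former, 8 were also lost with the latter, the exception being Loxl1 in SM. Of the 23 calls with all first libraries, 14 were made whichever replicate was left out and 9 were lost in at least 1 such fit. All genes were called in 3.94%, 0.874% and 1.36% of tests in the frontal front, parietal front and SM with the former, and in 2.62%, 0.592% and 1.92% with the latter. Loxl1 rose in all 3 coronal regions of the first libraries. First libraries of coronal SM held 6.51, 7.53, 18.99, 6.77 and 24.6 CPM at E16.5 and 40.1, 40.4, 32.1, 30.0 and 29.2 CPM at E18.5 (1.43 ± 0.28, adjusted p = 3.41e-05, edgeR). In the second libraries alone the rise was 0.28 ± 0.31 and not called (adjusted p = 0.745), while the first libraries of the same regions gave 1.596 ± 0.409 (adjusted p = 0.0452). In the parietal front the first libraries rose by 1.76 ± 0.32, from 4.24, 15.8, 4.19, 2.81 and 0.108 CPM to 21.1, 17.9, 19.9, 22.4 and 15.99 CPM, where the lowest E16.5 library held 2 counts. There the second libraries also rose (1.56 ± 0.38, adjusted p = 0.0490), and in the frontal front they gave 0.60 ± 0.32 (adjusted p = 0.356). The SM of the other sutures had differences from -0.55 to -0.43. Loxl4 fell in the coronal frontal front from 115, 46.7, 127, 73.2 and 81.1 CPM to 21.7, 61.9, 24.7, 26.8 and 22.4 CPM (-1.49 ± 0.29, adjusted p = 4.67e-05, edgeR). The second libraries gave -2.18 ± 0.26 (adjusted p = 5.49e-05), and Serpinh1 fell there too, by 0.66 ± 0.14 (adjusted p = 0.0116), as in the first libraries of the same regions (-0.78 ± 0.19, adjusted p = 0.0279), against -0.21 ± 0.20 in all 5 first libraries per group. Summed osteoblast markers in that front were 8443 ± 2635 CPM at E16.5 and 3918 ± 886 CPM at E18.5, and hypodermis markers 53.5 ± 20.4 and 36.35 ± 10.7 CPM. Higher at E18.5 were markers of suture mesenchyme (1819 ± 404 and 2785 ± 167 CPM) and ectocranial mesenchyme (92.5 ± 59.8 and 242 ± 103 CPM). Dura mater markers were higher as well (37.9 ± 18.4 and 103 ± 43.2 CPM). The part of these cell types in the result was not tested. The other lower coronal call was Lox, also in the frontal front (-0.46 ± 0.16, adjusted p = 0.0220, edgeR), which was not called with the second libraries alone (-0.11 ± 0.13, adjusted p = 0.740), with the first libraries of the same regions (-0.47 ± 0.21, adjusted p = 0.230) or without replicate 1, 3 or 5 (adjusted p = 0.0527 to 0.317). Coronal SM had 7 genes called higher with all first libraries, of which the second libraries alone called 2, Lox (1.03 ± 0.13, adjusted p = 1.58e-04) and Loxl2 (1.16 ± 0.26, adjusted p = 0.0248). Loxl3 went from 1.35 ± 0.36 to -0.97 ± 0.44 (adjusted p = 0.331), and without replicate 1 of the first libraries it was 0.15 ± 0.35 (adjusted p = 0.788). Serpinh1 went from 0.61 ± 0.20 to 0.09 ± 0.15, Bmp1 from 0.67 ± 0.16 to 0.11 ± 0.20 and Plod1 from 0.58 ± 0.18 to 0.20 ± 0.18.

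The OF to SM difference itself changed between stages for 0 of the 10 genes by edgeR, DESeq2 or voom, where 0.926% of all genes were called. At an unadjusted p under 0.05 by edgeR there were 2, Plod2 (0.26 ± 0.09, adjusted p = 0.151) and Loxl2 (-0.20 ± 0.08, adjusted p = 0.321). For Loxl4 the change was 0.03 ± 0.30. Of the substrate genes, 9 of 10 rose from E16.5 to E18.5 in SM and 9 of 10 in OFs, while the wider list gave 3 higher and 2 lower in SM and 6 higher and 1 lower in OFs, against 5.85% and 5.89% of all genes in SM and 6.53% and 6.27% in OFs.

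Levels could be compared between the 2 kinds of coronal library for 18 regions. The second library was lower in all 18 for Loxl2 (median log2 difference -0.82) and Plod2 (-0.83) and higher in all 18 for Serpinh1 (0.50), and Loxl1 was higher in 17 (1.2). Lox (-0.21) and Crtap (-0.21) differed less. Levels in captured coronal regions are therefore not compared with those of the other sutures. In complete E18.5 sutures, 4 libraries each, Loxl2 was at 243 to 354 CPM in the coronal, 105 to 156 in the frontal, 154 to 240 in the lambdoid and 203 to 310 in the sagittal suture. Loxl3 stood out in the lambdoid suture, at 92.4 to 121 CPM, against 25.2 to 40.2 in the coronal, 27.6 to 35.6 in the frontal and 51.5 to 74.7 CPM in the sagittal suture. Loxl4 was at 63.6 to 82.4 CPM in the coronal and 54.7 to 67.0 in the lambdoid suture and at 20.1 to 30.1 and 22.3 to 25.3 CPM in the frontal and sagittal sutures. The labels give no replicates for these libraries, so no test was made.

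Single-cell libraries of the coronal suture place the genes in cell groups. The filters left 466 and 337 E16.5 cells, at median depths of 2501 and 2121 UMIs, and 2412 and 1577 E18.5 cells, at 18476 and 7131 UMIs. Each library pooled several embryos. Stage and capture chemistry cannot be told apart, so stages are not compared. Clusters were made without the 10 genes and the 2 lists and are called after markers. With 2 libraries per stage no test was made, and values are given for both libraries in turn as CPM, here from UMIs. No doublet caller was run. The libraries of a stage shared 1 barcode at E16.5 and 5 at E18.5. An unnamed E18.5 cluster held 5 cells of one library and 508 of the other, so the other suture cells differ in makeup between libraries. Loxl4 was rare and was found mainly in osteoblast-like and chondrocyte-like cells. At E18.5 it was at 17.4 and 50.9 CPM in osteoblast-like cells (48 and 152 UMIs) and 1.37 and 3.37 CPM in the other suture cells, and macrophage-like cells, which should lack it, held 0.996 and 2.94 CPM. Suture mesenchyme-like cells had 0 UMIs in both libraries, which allows up to 1.23 and 3.99 CPM. Chondrocyte-like cells, 117 and 11 in number, held 15.8 and 93.6 CPM. Serpinh1 was at 4104 and 4625 CPM in osteoblast-like cells and 2471 and 2684 CPM in the others, with 473 and 444 CPM in macrophage-like cells.

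Loxl1 had the opposite distribution, with 20.7 and 16.1 CPM in osteoblast-like cells against 175 and 116 CPM in the other suture cells. Exact 95% Poisson intervals, which cover counting error only, were 15.7 to 26.8 and 11.9 to 21.3 CPM in osteoblast-like cells. At E16.5, the 38 osteoblast-like cells held 0 Loxl1 UMIs, so that the other cells, at 247 and 97.8 CPM, were at least 4.25-fold and 2.48-fold higher. A hypodermis-like cluster made up 121 of the 297 other cells in the first of these libraries, at 402 CPM, and 1 of 132 in the other. Without it, the other cells held 164 and 93.1 CPM, at least 2.82-fold and 2.36-fold higher. Loxl3 was highest in chondrocyte-like cells, at 72.3 and 140 CPM at E18.5 and 104 and 188 CPM at E16.5, and at 16.7 and 16.8 CPM in osteoblast-like cells at E18.5. Loxl2 was highest in suture mesenchyme-like cells, the cluster marked by Hhip, at 346 and 336 CPM, against 209 and 204 in osteoblast-like and 72.1 and 41.2 CPM in dura mater-like cells. Lox was lower in that cluster, at 208 and 235 CPM, and highest in ectocranial mesenchyme-like cells led by Igfbp3, at 836 and 962 CPM, with 560 and 848 CPM in osteoblast-like cells. Macrophage-like cells held 67.5 and 61.7 CPM of Lox. Plod1 (202 and 192 CPM) and Bmp1 (162 and 170 CPM) had their highest named-cluster levels in dura mater-like cells, where osteoblast-like cells held 67.8 and 78.8 CPM of Plod1 and 102 and 104 CPM of Bmp1. Plod2 was at 82.0 and 105 CPM in osteoblast-like cells and 58.4 and 96.5 CPM in the other cells, and Crtap was at 207 and 200 CPM and 198.5 and 154 CPM, respectively. Macrophage-like cells held 69.2 and 64.7 CPM of Plod1, 18.4 and 10.8 of Bmp1, 5.64 and 6.86 of Plod2, 48.8 and 57.8 of Crtap, 21.2 and 19.6 of Loxl2, 21.1 and 7.84 of Loxl1 and 5.97 and 4.90 CPM of Loxl3. Osteoblast-like cells were near these levels for Plod1 in both libraries and for Loxl1 in the first. For Plod1 the other suture cells, at 76.0 and 63.3 CPM, were near them too. Where the macrophage-like levels are background, such values cannot be told from it. Whether they are background or expression by the macrophage-like cells was not tested. When cells with over 500 genes were kept instead of over 800, the log2 ratio of osteoblast-like to other cells at E16.5 was -1.197 for Loxl1, -0.44 for Lox, -0.71 for Bmp1 and -0.28 for Plod1, against -0.14 and 0.81 in the 2 libraries for Lox, 0.15 and 0.97 for Bmp1 and 0.82 and 1.10 for Plod1 with the main filter. The Loxl1 ratio was then smaller than the bounds above, which hold for the main filter only.

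**Figure D5:**
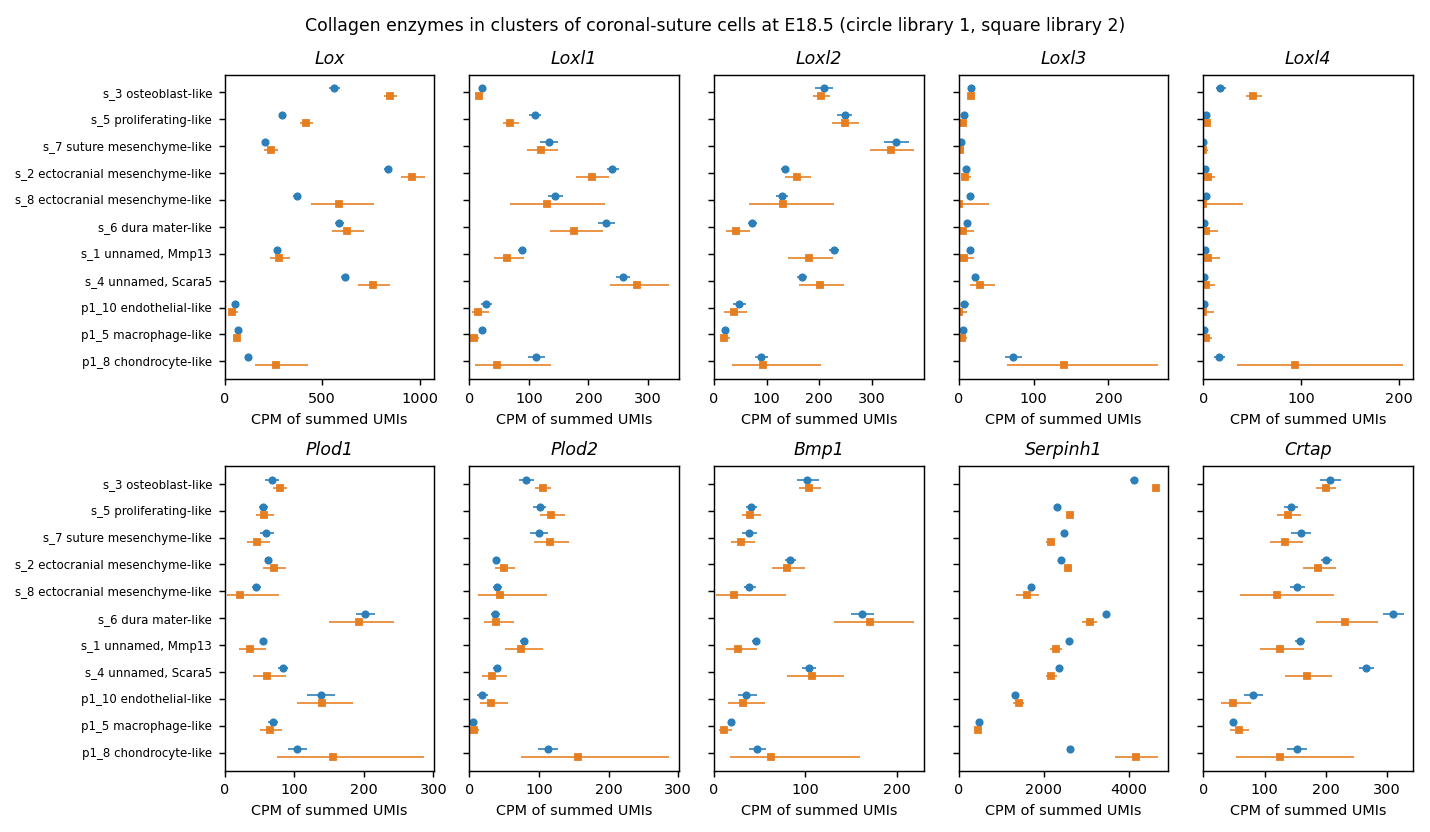
CPM from UMIs in the E18.5 clusters, 1 panel per gene and 1 colour per library, with exact 95% Poisson intervals for counting error. Loxl4 is highest in osteoblast-like and chondrocyte-like cells, Loxl1 is lower in osteoblast-like cells (20.7 and 16.1) than in the other named suture clusters, and Loxl2 is highest in suture mesenchyme-like cells (346 and 336).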

How the data were processed

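Libraries of laser-captured SM and OFs were amplified and sequenced by the authors, who aligned reads to mm10 with STAR 2.5.3a and deposited gene counts made by featureCounts 1.6.4 without strand. The deposited single-cell matrices hold UMI counts per cell. A further deposited table of the authors' own fold changes and p-values was not used. Members and gene lists were chosen with earlier results of these data known. Genes with at least 1 CPM in over 10 percent of the 100 first libraries were tested (19768) with edgeR 4.0.16 in R 4.3.3: TMM scaling, quasi-likelihood tests, Benjamini-Hochberg adjustment over all genes and a threshold of 0.05. OFs were compared with SM with the embryo as a block, since libraries of 1 embryo carry its identifier (median correlation of deviations 0.0437 over 60 pairs), and stages without it. Named list genes were the 6 with the largest change, and similar genes the 3 highest correlations. On simulated data the mean OF to SM contrast recovered 92 of 100 genes changed 1.5-fold and 98 of 100 changed 2-fold over 19768 genes, with 19 false calls, and the mean SM stage contrast 70 and 97, with 15. Cells with over 800 genes, less outliers beyond 3 median absolute deviations, were clustered with scanpy 1.11.5 (Leiden, resolution 0.8), leaving out members and lists. Intervals and floors (3 counts) cover counting error only. Alternatives were other scalings, filters, DESeq2 1.42.0, voom (limma 3.58.1), no block, and left-out or second libraries. Those without the coronal libraries, with the second coronal libraries alone or with the first libraries of the same regions were chosen after seeing the data. So were those without a cell cluster and those for the lists and the differences between fronts.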

Additional observations from a re-analysis of the deposited data

Results flagged for a closer look

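In 23 of the 200 groups of 5 libraries, 1 library lay far from the other 4, with its gap to the nearest over 0.71 of the whole range. Chance flags about 1 in 20 groups where values follow a normal distribution, which was not tested for these CPM values. The share of such groups over all genes is not given here. Lox had such high libraries at 2120 CPM in replicate 5 of the coronal frontal front at E16.5 and 1635 CPM in replicate 5 of the coronal parietal front at E16.5. Loxl1 had such high libraries at 15.8 CPM in replicate 2 of the coronal parietal front at E16.5, 61.1 CPM in replicate 1 of the frontal SM at E16.5 and 36.4 CPM in replicate 1 of the lambdoid interparietal front at E18.5. For Loxl2, the library that was far above the others held 152 CPM in replicate 3 of the sagittal SM at E16.5. Loxl3 had such high libraries at 25.96 CPM in replicate 1 of the coronal SM at E18.5 and 26.3 CPM in replicate 5 of the frontal suture front at E18.5. Loxl4 had such high libraries at 61.9 CPM in replicate 2 of the coronal frontal front at E18.5, 14.6 CPM in replicate 2 of the lambdoid SM at E16.5 and 6.99 CPM in replicate 1 of the sagittal SM at E16.5. For Plod2, the library that was far above the others held 105 CPM in replicate 3 of the frontal SM at E18.5. Serpinh1 had such high libraries at 1289 CPM in replicate 2 of the coronal frontal front at E18.5, 1732 CPM in replicate 2 of the coronal parietal front at E18.5, 607 CPM in replicate 1 of the frontal SM at E16.5, 2905 CPM in replicate 2 of the lambdoid parietal front at E16.5 and 648 CPM in replicate 2 of the lambdoid SM at E18.5. Crtap had such high libraries at 219 CPM in replicate 2 of the coronal frontal front at E18.5, 170 CPM in replicate 1 of the frontal suture front at E16.5 and 186 CPM in replicate 2 of the frontal SM at E18.5. Libraries that were far below the others held 1012 CPM of Lox in replicate 1 of the coronal parietal front at E18.5, 441 CPM of Loxl2 in replicate 2 of the lambdoid interparietal front at E18.5 and 51.2 CPM of Plod1 in replicate 2 of the frontal suture front at E18.5. Of the high libraries of the coronal frontal front at E18.5, Loxl4, Serpinh1 and Crtap came from the same embryo, replicate 2.

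The OF to SM difference also differed between sutures by a test of the difference itself. On the log2 scale, the coronal difference minus the mean of the others was 0.81 for Lox, 1.94 for Loxl3, -0.95 for Loxl4, 1.06 for Bmp1, 0.32 for Serpinh1 and 0.68 for Crtap. In the F test over the 4 sutures, F was 22.3 for Lox, 32.5 for Loxl3, 5.08 for Loxl4, 5.15 for Plod1, 39.0 for Bmp1, 12.1 for Serpinh1 and 22.4 for Crtap.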

How the results depend on the processing

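Of the alternatives for counts of called genes, 378 values stayed within 1.5 times the main count and 34 moved outside it. For single genes, 690 kept their direction and their side of the threshold, 11 gained and 31 lost a call, 7 moved and 1 reversed. The reversal was Loxl1 between stages in OFs, -0.334 without the coronal libraries. Without the coronal libraries, 2 of the 10 genes were higher and 2 lower at E18.5 in SM (4 and 0 with them), 1 was lower in OFs (0), 6 and 2 genes of the wider list were lower in SM and OFs (2 and 1), and 2 substrate genes were higher in OFs than in SM (6). With the 18 second coronal libraries replacing their first counterparts, 8 calls in the 10 regions were higher and 1 lower at E18.5 (21 and 2). In that fit, 0 genes had a lower signed coronal difference (1) and 2 calls between fronts were higher (1). There, 0 genes of the wider list were lower at E18.5 in OFs (1). In the coronal suture alone, the second libraries gave 4 higher stage calls and 1 lower OF call, and the first libraries of the same regions gave 1 higher stage call and 15 higher and 0 lower OF calls, against 12 higher stage calls and 24 higher and 2 lower OF calls in all first libraries. These sets hold 3 libraries per group in place of 5. With each suture fitted alone, 6 region-wise stage calls were lower (2). By total counts without TMM, 1 gene of the wider list was lower in SM at E18.5 (2) and 4 calls between fronts were lower (10). By DESeq2, 2 calls between fronts were higher (1). Leaving out 1 replicate at a time gave 1 to 3 lower region-wise stage calls, and 1 to 2 higher and 6 to 9 lower calls between fronts. Of the wider list, 1 to 2 and 0 to 1 genes were then lower at E18.5 in SM and OFs. These fits gave 0 to 1 genes with a lower signed coronal difference. The gene lost from the coronal difference was Loxl4, without replicate 2. Without the embryo as a replicate block, 6 genes were higher and 3 lower in OFs on average, 49 and 18 calls were made in the 12 comparisons, 6 genes differed among sutures, and Serpinh1 lost its coronal difference. Embryo as a random block gave 3 higher and 0 lower genes at E18.5 in SM and in OFs. Of 60 same-embryo pairs, 15 had a correlation of deviations over 0.1. Low counts limit Loxl1, at 0.108 CPM in its lowest library, and Loxl3, at 0.605.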
